A study of Mus musculus with 12 samples.

Results

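Gene expression in the prefrontal cortex was compared between 3 APPsα-DM and 3 APLP2-KO arrays, which are 6 of the 12 arrays of the series. Every cortex array of either genotype was taken by its label. The comparison covered all 45037 probe sets that are not array controls and, with the probe set of highest mean signal standing for each gene, 18193 genes. The other 6 arrays held the hippocampus of the same genotypes. APLP2-KO mice, by their labels, lacked APLP2 (APLP2-/-), a close relative of the amyloid precursor protein APP, and had intact App alleles. APPsα-DM mice (APPα/α APLP2-/-) lacked APLP2 as well and carried the APPα form of App on both alleles, which is generally described as ending after the alpha-secretase site, so that only the secreted ectodomain APPsα can be made. All mice were females aged 38 to 40 weeks, back-crossed over 6 generations to C57BL/6. Since every group lacked APLP2, the comparison addresses the edited App allele in that setting, and wild-type mice or mice with edited App alone were not analysed here. The labels name no Cre line or cell type restriction for either allele. They also do not say that each array came from a mouse of its own, although the series' design gives 3 mice per genotype, so the p-values measure the spread between these arrays.

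APP is a type I membrane protein of neurons and many other cells. Cleavage by alpha-secretase releases APPsα, which is known for neurotrophic and synaptic effects, whereas cleavage by beta- and gamma-secretase releases amyloid-beta and an intracellular domain. APP and APLP2 overlap in function, which is why single mutants are milder than combined ones, and the membrane-bound forms act in adhesion at synapses and bind adaptor proteins through their cytoplasmic tail.

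The values were log2 signals, so a difference of 1 is a doubling, and all differences are APPsα-DM minus APLP2-KO with the moderated standard error (SE) of limma. Cortex arrays correlated at r = 0.9952 to 0.9972 within a genotype (6 pairs) and at 0.9949 to 0.9973 between genotypes (9 pairs), over probe sets that are not independent replicates. No pair shared more than 0.104% of identical values, and the median SD over probe sets was 0.10 in APLP2-KO and 0.106 in APPsα-DM. Some arrays stood apart in markers of neighbouring tissue. Ttr, the transthyretin gene of the choroid plexus, read 9.31, 8.69 and 14.03 on the APLP2-KO arrays and 8.20, 14.18 and 9.42 on the APPsα-DM arrays, so that APLP2-KO replicate 3 and APPsα-DM replicate 2 were high. APPsα-DM replicate 3 was high in olfactory bulb genes, given with the cell type markers. The 3' minus 5' signal of the Gapdh control probes lay between -0.10 and 0.04, and that of beta-actin between 1.02 and 1.33 with the highest values on APLP2-KO replicate 1 (1.26) and APPsα-DM replicate 2 (1.33).

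App itself gave far lower signal in APPsα-DM cortex. Its first probe set read 12.52, 12.77 and 12.60 in APLP2-KO and 8.20, 7.70 and 7.98 in APPsα-DM, and its second read 13.38, 13.50 and 13.50 against 11.83, 11.73 and 11.83. The genotypes were separated on every array. The App signal fell by 4.67 ± 0.11 on the first probe set (95% interval -4.91 to -4.43, 25.4-fold, adjusted p = 5.9e-10) and by 1.67 ± 0.07 on the second (-1.82 to -1.52, 3.17-fold, adjusted p = 1.62e-07, limma with Benjamini-Hochberg adjustment over all probe sets). The probe sets thus differed in size of change, and the position of these probes along the edited gene was not analysed here. By how much the amount of App transcript differed was therefore not tested. A probe set to which the annotation gives no gene read 9.89, 9.81 and 9.77 against 6.63, 6.50 and 6.77, and fell by 3.19 ± 0.10 (adjusted p = 5.81e-09 in limma). App has a pair of further probe sets of low signal, which differed by -0.11 ± 0.09 and -0.35 ± 0.10 and did not pass the threshold. The related family members showed no call. Aplp1 read 13.21, 13.26 and 13.19 against 13.15, 13.18 and 13.16 on its highest probe set (-0.06 ± 0.06). Aplp2, which the labels give as lost in both genotypes, read 9.98, 10.13 and 10.15 against 10.13, 10.13 and 9.91 on its highest probe set (-0.03 ± 0.10), and the ranges overlapped. These signals are far above the median of all probe sets (5.89), so the arrays do not show the labelled loss. The position of the Aplp2 probes relative to the deletion was not analysed here, nor was an array with intact Aplp2.

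Timmdc1 was the only named gene besides App to pass the threshold of 0.05 on the adjusted p. It encodes an inner mitochondrial membrane protein that takes part in assembling respiratory complex I. Its signal was 6.93, 6.58 and 6.63 in APLP2-KO cortex and 7.58, 7.56 and 7.53 in APPsα-DM cortex, with every APPsα-DM array above every APLP2-KO array. Timmdc1 rose by 0.84 ± 0.10 (95% interval 0.63 to 1.06, 1.80-fold, adjusted p = 0.0162 in limma). The hippocampus arrays gave the same picture, 6.59, 6.53 and 6.52 against 7.44, 7.59 and 7.28, a difference of 0.89 ± 0.10. The size moved little and the call did not hold in several settings. Leaving out 1 cortex array at a time gave 0.78 to 0.95, with an adjusted p of 0.133 without APLP2-KO replicate 2, 0.170 without APLP2-KO replicate 3, and 0.156, 0.137 and 0.112 without APPsα-DM replicates 1, 2 and 3. The adjusted p was 0.00309 without APLP2-KO replicate 1. It was 0.209 from the 6 cortex arrays alone and 0.577 without the 2 arrays of highest Ttr.

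Past these, the cortex transcriptomes of the genotypes were close. In all, 4 of 45037 probe sets passed the threshold (0.00888%), 3 lower and 1 higher in APPsα-DM, and 8 probe sets differed by more than 1 log2 unit in either direction, of which 3 were called. At an unadjusted p under 0.05 stood 2027 probe sets (4.5%), 971 higher and 1056 lower. Per gene, 377 were higher at that level (2.07%) and 454 lower (2.5%), while the 3 arrays of APPsα-DM lay wholly above those of APLP2-KO for 774 genes (4.25%) and wholly below for 1012 (5.56%). Over all genes 50.6% had a difference above 0 and 49.4% below, with a median of 0.001. The intervals bound the difference in signal of each probe set singly, without adjustment over all probe sets. At low signal, where the processing damps differences, a narrow interval need not bound a change in expression. For 43591 probe sets (96.8%) the 95% interval lay within a 1.5-fold change either way, and for 44855 (99.6%) within a 2-fold change. The median half-width of the interval was 0.20 log2 units, with 0.14 and 0.37 at the 5th and 95th percentile.

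**Figure D1:**
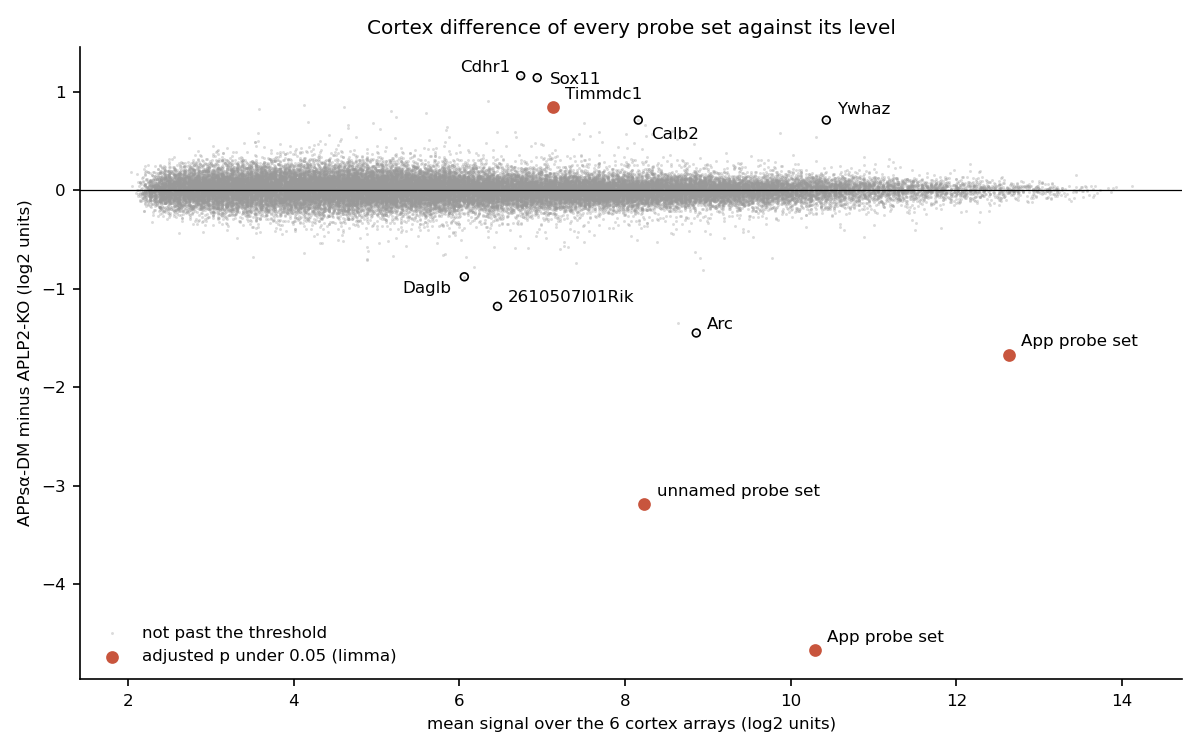
Difference APPsα-DM minus APLP2-KO in cortex (vertical axis, log2 units) against the mean signal over the 6 cortex arrays (horizontal axis, log2 units) for every probe set. The 4 probe sets past the adjusted p of 0.05 are in red, open circles mark the largest differences of named genes that did not pass it, and most other probe sets lie in a band around 0.

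Among the genes of smallest p that were not called, low signals were more common on the higher side than on the lower. The 12 higher and 12 lower genes of smallest p, without Timmdc1 and App, were 22 genes with absolute differences of 0.25 to 0.60 and adjusted p from 0.612 to 1 in limma. Their cortex groups did not overlap for any of the 22. They were picked by p on these same arrays, so this separation is no further support. Over all genes 4.25% lay wholly above and 5.56% wholly below. Of the 11 higher genes, 10 had a mean signal under the median of all probe sets, against 5 of the 11 lower genes. Genes with more than 1 probe set allow a check within the gene: of 36 other probe sets of 15 of these genes, 28 had the same sign, and 7 of those an unadjusted p under 0.05. Over all probe sets 4.5% stood under that p, in either direction. Most of the 36 had a smaller difference than the probe set in this group, and many were near 0.

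Cdk5rap1, which encodes an enzyme that modifies mitochondrial transfer RNA, read 7.71, 7.43 and 7.42 in APLP2-KO and 6.89, 6.92 and 6.94 in APPsα-DM. Its difference of -0.60 ± 0.11 did not pass the threshold (adjusted p = 0.612 in limma). The hippocampus gave -0.70. Slc35a5, of the nucleotide sugar transporter family, read 9.67, 9.54 and 9.63 against 9.23, 9.14 and 9.31 (-0.39 ± 0.08, adjusted p = 0.641 in limma), also without overlap. Of its 4 other probe sets, those of higher signal differed by -0.46 and -0.47 and those of lower signal by -0.07 and -0.16, and the hippocampus gave -0.40. Upk1b, a uroplakin of the tetraspanin family, read 4.92, 5.05 and 5.16 against 4.65, 4.44 and 4.58 (-0.49 ± 0.09), with -0.39 in hippocampus. Its other probe sets gave -0.26, -0.22 and 0.08 in cortex.

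Other lower genes of this group had no counterpart in hippocampus of the same size. Camk2n2, an inhibitor protein of calcium/calmodulin-dependent kinase II, read 10.89, 10.81 and 10.68 against 10.41, 10.47 and 10.37 in cortex (-0.37 ± 0.07, adjusted p = 0.735 in limma) and gave -0.04 in hippocampus. Trib1, a pseudokinase that marks transcription factors for degradation, read 7.33, 7.28 and 7.11 against 6.93, 6.69 and 6.81 (-0.43 ± 0.08), with -0.03 in hippocampus. The ranges were apart in cortex for both genes on these probe sets. The other Trib1 probe set, of low signal, gave 0.11 in cortex. Plcd3, a phospholipase C, was tight within each genotype, at 7.50, 7.52 and 7.49 against 7.19, 7.23 and 7.17 (-0.31 ± 0.06), with 0.11 in hippocampus. Pigt, a subunit of the enzyme that attaches lipid anchors to proteins, read 8.41, 8.47 and 8.43 against 7.77, 8.13 and 8.33 on its probe set of highest signal (-0.36 ± 0.12) and differed by -0.51 ± 0.11 on another, with -0.10 for the latter in hippocampus. None of these differences between the tissues passed the threshold, as given with the hippocampus values further on.

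Ift57, which belongs to the transport machinery of cilia, was the higher gene of this group with a signal above the median, at 9.20, 9.16 and 9.17 in APLP2-KO and 9.42, 9.46 and 9.41 in APPsα-DM. The difference of 0.25 ± 0.06 was small but larger than the spread within either genotype, and hippocampus gave 0.13. Prokr2, a prokineticin receptor, read 4.90, 4.87 and 5.09 against 5.33, 5.57 and 5.55 (0.53 ± 0.10), with -0.12 in hippocampus. For Sec11a, a catalytic subunit of signal peptidase, the probe set in this group differed by 0.58 ± 0.11 (3.24, 3.38 and 3.23 against 4.02, 3.96 and 3.61). The other Sec11a probe set read 9.58, 9.55 and 9.61 against 9.59, 9.64 and 9.58 and gave 0.03, so the probe sets of the gene disagree. Rassf1 disagreed likewise, with -0.42 on the probe set of this group and -0.03 on each of a pair with higher signal. Nrp2, a receptor for semaphorins, differed by 0.40 on the probe set of this group and by 0.17, 0.14 and 0.14 on its others. The remaining genes were Figla (0.56), 9630013A20Rik (0.50), Hsd3b5 (0.50), Psmc3ip (0.43), Cplane1 (0.39), Oaz3 (0.33) and Pclaf (0.32) on the higher side and A930003A15Rik (-0.54), Ebf4 (-0.37) and Avpr1a (-0.31) on the lower. These values are of the probe set of smallest p, and others of the same genes differed. Psmc3ip gave 0.02 on its other probe set, Avpr1a 0.07, Pclaf -0.00 and -0.15, and 9630013A20Rik 0.18 and 0.08. Cplane1 gave 0.07 and -0.02 on its pair of highest signal, and the other Oaz3 probe sets ran from -0.11 to 0.28.

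**Figure D2:**
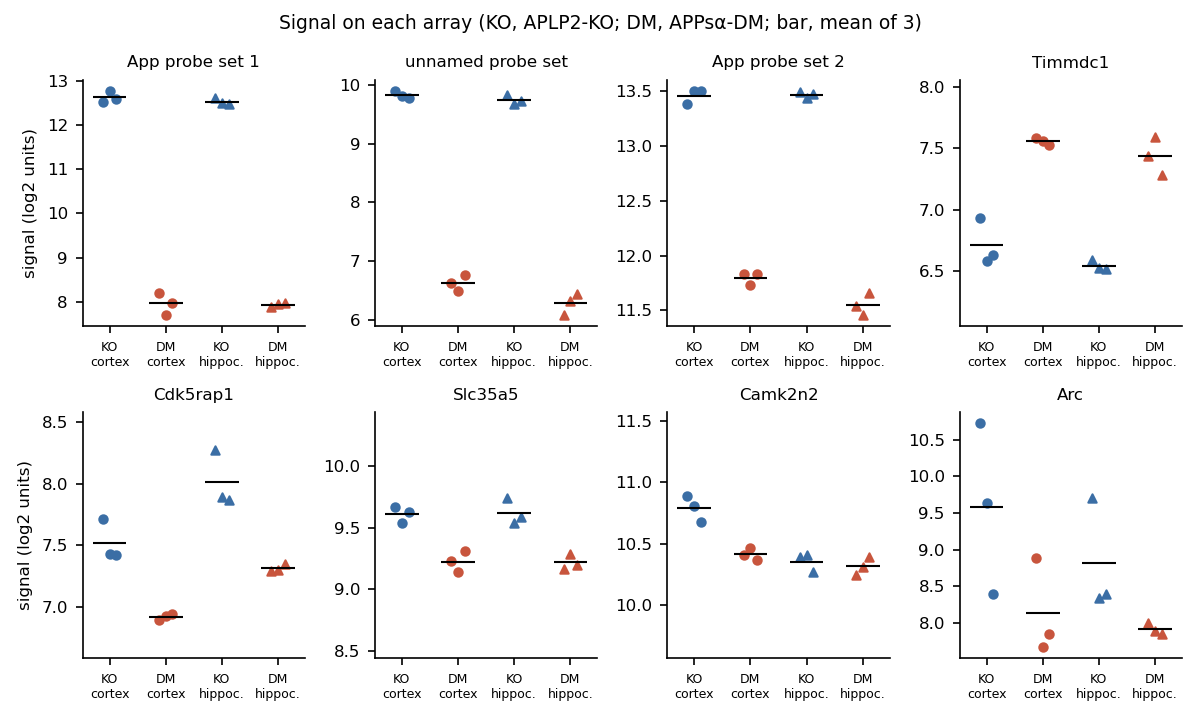
Signal (log2 units) on each of the 12 arrays for the 4 called probe sets and for Cdk5rap1, Slc35a5, Camk2n2 and Arc, in cortex (circles) and hippocampus (triangles), with APLP2-KO in blue, APPsα-DM in red and a bar at the mean of 3. The genotypes are apart in both tissues for the called probe sets, Cdk5rap1 and Slc35a5 and in cortex for Camk2n2, while Arc overlaps in cortex and not in hippocampus.

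App and Timmdc1 both lie on chromosome 16, as do 5 of the 22 genes: Ift57, Upk1b, Slc35a5, Camk2n2 and A930003A15Rik. With App and Timmdc1 left out, 39 of 590 genes of chromosome 16 had an unadjusted p under 0.05 (6.61%; 16 higher, 23 lower), against 776 of 17428 genes on all other placed chromosomes (4.45%). Under a p of 0.01 stood 13 on chromosome 16 (2.20%) against 126 elsewhere (0.723%), and under 0.001 there were 4 against 8. Chromosome 11, the next highest share at 0.05, held 80 of 1443 (5.54%). The strain origin of chromosome 16 around the edited App allele was not tested.

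Apart from App and Timmdc1, the largest differences among named genes with a mean signal above the median were in genes that varied widely between arrays of one genotype. Arc, an activity-regulated gene of the postsynapse, read 10.72, 9.64 and 8.40 in APLP2-KO and 8.88, 7.67 and 7.85 in APPsα-DM. The ranges overlapped, and the difference of -1.45 ± 0.51 ran from -2.05 to -0.89 as single arrays were left out. 2610507I01Rik read 7.32, 6.57 and 7.27 against 6.66, 5.41 and 5.55 (-1.18 ± 0.39), with -1.21 in hippocampus. Daglb, a diacylglycerol lipase, read 6.88, 4.85 and 7.76 against 6.79, 5.01 and 5.06 (-0.88 ± 0.77). On the higher side, Sox11, a transcription factor of immature neurons, read 7.58, 4.68 and 6.84 against 7.86, 6.82 and 7.85 (1.14 ± 0.81). Ywhaz, a 14-3-3 adaptor protein, read 9.52, 11.17 and 9.53 against 10.56, 10.58 and 11.21 (0.71 ± 0.56). Cdhr1, a protocadherin-related protein, read 5.91, 6.00 and 6.57 against 6.14, 6.91 and 8.90 (1.16 ± 0.51), and Calb2, calretinin, 7.67, 7.44 and 8.31 against 7.61, 8.45 and 9.48 (0.71 ± 0.35). Both were highest on APPsα-DM replicate 3, and without it gave 0.37 and 0.22. All 7 had an adjusted p of 1 in limma.

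Genes were then grouped by role in 42 lists, 25 of processes and 17 of cell or tissue markers. The lists held 767 genes, of which 698 were measured by a probe set of 1 gene symbol and the others were not analysed here. App and Timmdc1 were the 2 called members, beside 0.00888% of all probe sets. Apart from them, every list is described by the signs and the median of its members' differences, to be read beside the 50.6% above 0 and the median of 0.001 over all genes.

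**Figure D3:**
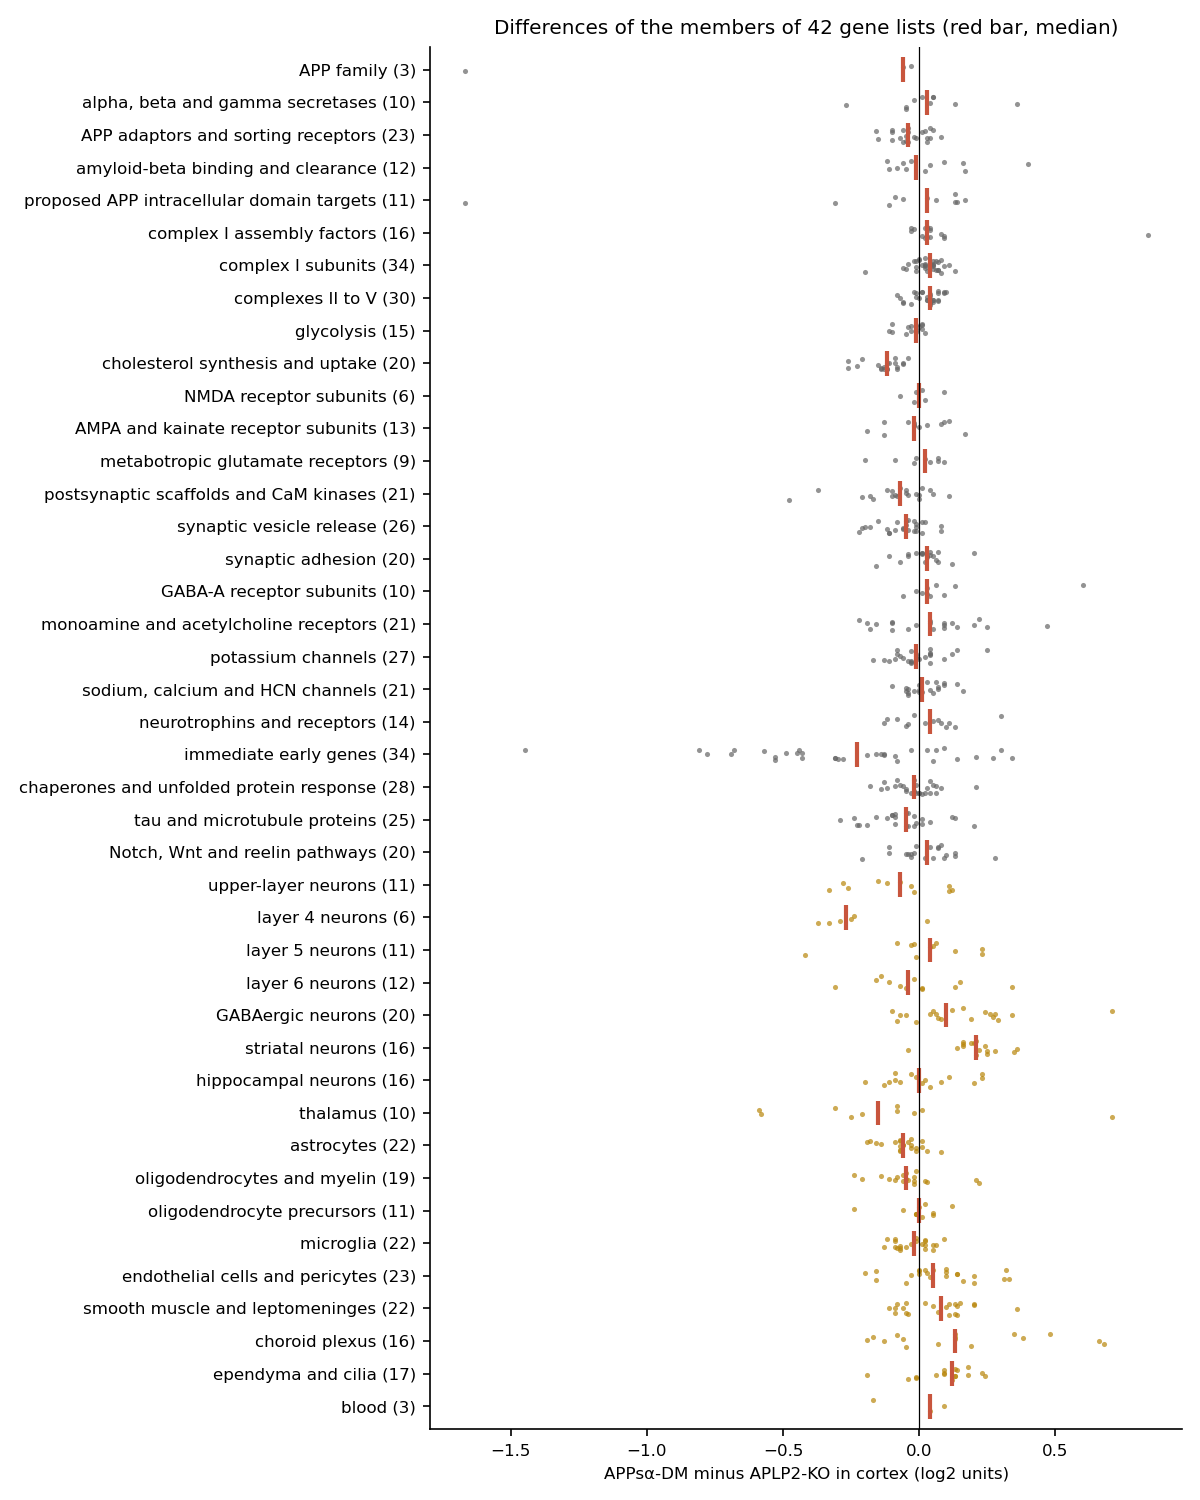
Difference APPsα-DM minus APLP2-KO in cortex (log2 units) of the measured members of the 42 lists, 1 point per gene (grey, process lists; gold, marker lists), with the list median as a red bar and the number of measured members in brackets. App stands at -1.67 and Timmdc1 at 0.84, and the medians of the immediate early genes (-0.23), the layer 4 markers (-0.27) and the striatal markers (0.21) lie farthest from 0.

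The enzymes that cut APP and the proteins that bind it were little different in level. Of 10 measured alpha-, beta- and gamma-secretase genes, 6 were above 0 and 4 below with a median of 0.03, and the 95% interval of all 10 lay within 1.5-fold. Bace2, a homologue of beta-secretase, read 6.02, 6.13 and 6.16 in APLP2-KO and 6.29, 6.68 and 6.41 in APPsα-DM. These did not overlap, and the difference of 0.36 ± 0.10 stood beside -0.19 in hippocampus. Aph1a, a gamma-secretase subunit, read 8.37, 8.54 and 8.37 against 7.91, 8.29 and 8.27 (-0.27 ± 0.11), and Bace1, beta-secretase, 9.82, 9.64 and 9.59 against 9.77, 9.78 and 9.89 (0.13 ± 0.08). The 23 adaptors and sorting receptors of APP split 8 above to 15 below with a median of -0.04. All 23 intervals were within 1.5-fold, and the farthest member, Numbl, an endocytic adaptor, was at -0.16 ± 0.09. Genes of amyloid-beta binding and clearance split 6 to 6 of 12 (median -0.01). Ide, insulin-degrading enzyme, read 9.34, 9.36 and 9.31 against 9.24, 9.19 and 9.23 (-0.11 ± 0.06). Besides App itself, 10 genes proposed as targets of the APP intracellular domain, which the edited allele lacks, were measured, and the list of 11 split 6 above to 5 below with a median of 0.03. Of these, Gsk3b, a tau kinase, read 10.40, 10.28 and 10.39 against 10.49, 10.48 and 10.48 (0.13 ± 0.07). The ranges were apart for Ide and Gsk3b, but neither difference reached an adjusted p under 1.

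Timmdc1 stood alone among the measured genes of the respiratory chain and of complex I assembly. Of 16 measured complex I assembly factors, 13 were above 0 with a median of 0.03, and the 15 other than Timmdc1 lay between -0.03 and 0.09, all with an interval within 1.5-fold. Tmem70 (0.09 ± 0.06) and Ndufaf6 (0.09 ± 0.06) were the next highest. The 34 subunits of complex I split 25 above to 9 below with a median of 0.04, and all their intervals were within 1.5-fold. Ndufb3, an accessory subunit, read 10.84, 10.73 and 10.86 against 10.88, 11.03 and 10.87 (0.11 ± 0.07), just without overlap. The 30 genes of complexes II to V split 22 to 8, also with a median of 0.04, and 15 glycolysis genes 5 to 10 with a median of -0.01. No member of these last 3 lists passed an unadjusted p of 0.05.

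In cortex the sterol list had a negative difference for 20 of its 20 measured members, each of them small; the list covers cholesterol synthesis and uptake. These genes are targets of the transcription factor SREBP2, which neurons and glia use to keep sterol supply matched to demand. The differences ran from -0.26 to -0.04 with a median of -0.12, and none was called. At an unadjusted p under 0.05 stood 4 of 20, all lower, where 2.5% of all genes were lower at that level, and 6 had no overlap between the genotypes, all lower, where 5.56% of all genes lay so. The mean signal of the list was 9.06, 9.12 and 9.03 on the APLP2-KO arrays and 8.92, 8.98 and 8.91 on the APPsα-DM arrays, so the genotypes were apart in the mean. Glycolysis genes, with a median of -0.01, were apart in their mean too (11.74 to 11.76 against 11.71 to 11.73). Separation of a list mean was thus not particular to the sterol genes. Leaving out any 1 cortex array kept 20 of 20 below 0 with medians of -0.14 to -0.09, leaving out the 2 arrays of highest Ttr gave 19 of 20 and -0.18, and averaging each gene's probe sets gave 18 of 20 and -0.11. All 20 intervals lay within a 1.5-fold change. In hippocampus 20 of 20 were below 0 with a median of -0.16. The design gives 3 mice per genotype and each tissue 3 arrays per genotype, so the tissues are not independent samples of the genotypes. Astrocyte markers, whose cells make much of the brain's cholesterol, averaged 10.31, 10.24 and 10.16 against 10.13, 10.23 and 10.19, and oligodendrocyte markers 10.30, 10.15 and 10.16 against 10.05, 10.28 and 10.15. Both overlapped between the genotypes over all cortex arrays. Without the 2 arrays of highest Ttr, 20 of 22 astrocyte markers were below 0 (median -0.09), and 17 of 19 oligodendrocyte markers (median -0.12). The part of these cells in the cholesterol genes was not tested.

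Along the pathway, Hmgcs1, which makes the HMG-CoA from which mevalonate is formed, read 12.02, 12.08 and 12.03 in APLP2-KO and 11.81, 12.01 and 11.87 in APPsα-DM (-0.15 ± 0.08). Mvd, which closes the mevalonate steps, read 7.42, 7.49 and 7.41 against 7.14, 7.41 and 7.15 (-0.21 ± 0.09). Idi1, the isomerase that follows it, read 9.68, 9.70 and 9.50 against 9.41, 9.45 and 9.25 (-0.26 ± 0.10). The ranges were apart for Hmgcs1 and Idi1 and met at 7.41 for Mvd. Msmo1, a sterol oxidase of the late steps, read 10.20, 10.36 and 10.22 against 10.07, 10.17 and 10.10 (-0.14 ± 0.08). Insig1, which holds the SREBP complex in the endoplasmic reticulum and is itself a target, read 8.37, 8.20 and 8.25 against 7.98, 8.12 and 8.02 (-0.23 ± 0.10). Stard4, a sterol carrier, read 8.75, 8.88 and 8.73 against 8.53, 8.47 and 8.57 (-0.26 ± 0.12). For these last 3 no APPsα-DM array reached the lowest APLP2-KO array, and the adjusted p of every member was 1 in limma.

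**Figure D4:**
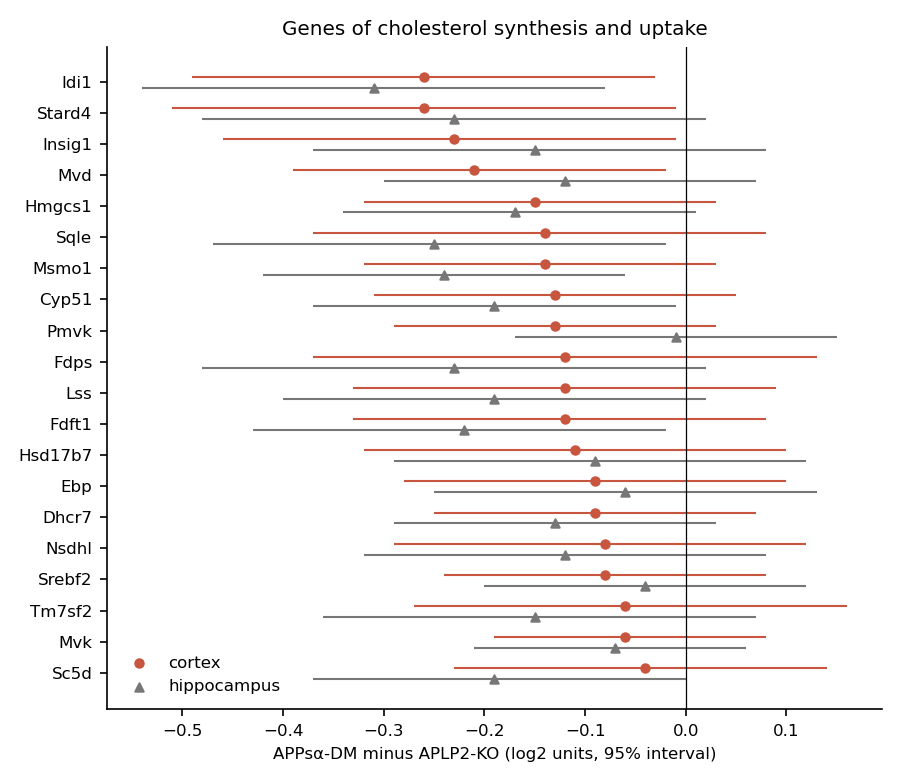
Difference APPsα-DM minus APLP2-KO (log2 units, with 95% interval) of the 20 measured genes of cholesterol synthesis and uptake in cortex (red circles) and hippocampus (grey triangles). All 20 points lie below 0 in each tissue, and most cortex intervals reach past 0.

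Because these genes lay on one side together, the 250 bases before the start of 4 members that differ in their place in the pathway are shown, 5′ to 3′ on the strand of the gene. The sequences are RefSeq's, from the build GRCm38.p6: Hmgcs1 at chr13:119690101-119690350 (plus strand), Idi1 at chr13:8885356-8885605 (plus strand), Insig1 at chr5:28071162-28071411 (plus strand) and Mvd at chr8:122443423-122443672 (minus strand). Capitals mark the CCAAT box (CCAAT, or ATTGG on the other strand), the sterol element core TCACCCCAC (or GTGGGGTGA) and the E-box CACGTG, which reads the same on both strands.
Hmgcs1: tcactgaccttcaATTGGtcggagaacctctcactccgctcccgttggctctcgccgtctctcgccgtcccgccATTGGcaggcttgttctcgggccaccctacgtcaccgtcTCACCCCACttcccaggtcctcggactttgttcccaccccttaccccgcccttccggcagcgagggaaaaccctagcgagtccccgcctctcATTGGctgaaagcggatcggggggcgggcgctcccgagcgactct
Idi1: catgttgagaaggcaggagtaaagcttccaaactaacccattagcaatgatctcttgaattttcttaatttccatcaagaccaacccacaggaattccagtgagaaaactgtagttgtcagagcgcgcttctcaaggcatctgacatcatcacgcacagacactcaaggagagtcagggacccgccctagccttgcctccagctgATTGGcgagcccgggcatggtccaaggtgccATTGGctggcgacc
Insig1: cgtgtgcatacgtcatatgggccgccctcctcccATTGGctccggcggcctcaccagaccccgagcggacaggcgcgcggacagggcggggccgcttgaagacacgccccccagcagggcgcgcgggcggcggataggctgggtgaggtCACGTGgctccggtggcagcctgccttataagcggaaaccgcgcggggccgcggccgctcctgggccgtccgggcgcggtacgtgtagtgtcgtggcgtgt
Mvd: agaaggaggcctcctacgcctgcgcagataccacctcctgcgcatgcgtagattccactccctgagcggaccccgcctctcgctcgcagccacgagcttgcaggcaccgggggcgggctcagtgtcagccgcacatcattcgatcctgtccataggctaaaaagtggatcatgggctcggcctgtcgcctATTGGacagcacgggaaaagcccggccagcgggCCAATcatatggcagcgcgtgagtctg
The Hmgcs1 window held 3 CCAAT boxes and 1 sterol element core, Idi1 and Mvd 2 CCAAT boxes each, and Insig1 1 CCAAT box and 1 E-box, and no matches overlapped. A promoter window was at hand for 16 of the 20 measured genes. A CCAAT box was in 16 of these 16, against 37.5% of the 27025 windows of all genes. The sterol element core was in 1 (Hmgcs1), against 0.555% of all, and the E-box in 4 (Hsd17b7, Sc5d, Dhcr7 and Insig1), against 6.86% of all. These are matches of letters and not binding sites, and a sterol element that differs from the searched letters would not be counted.

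Genes of the presynaptic release machinery and of the postsynaptic scaffold lay mostly below 0, by small amounts. Of 26 measured release genes, 21 were below 0 with a median of -0.05, and 3 lower and no higher genes had an unadjusted p under 0.05, where 2.5% of all genes were lower and 2.07% higher at that level. Vamp2, the main vesicle SNARE, read 12.15, 12.20 and 12.16 in APLP2-KO and 11.96, 11.83 and 12.07 in APPsα-DM (-0.22 ± 0.08). Stx1a, its partner on the plasma membrane, read 12.29, 12.25 and 12.13 against 12.12, 11.99 and 11.95 (-0.21 ± 0.08), and Rims1, an active zone organiser, 10.91, 11.04 and 10.80 against 10.78, 10.72 and 10.67 (-0.20 ± 0.08). The genotypes were apart for all 3, though by as little as 0.01 for Stx1a. Without APPsα-DM replicate 2, 14 of 26 were below 0 with a median of -0.02. The list's mean signal overlapped, and in hippocampus 13 of 26 were below 0 with a median near 0.

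Of 21 scaffold and calcium/calmodulin kinase genes, 16 were below 0 with a median of -0.07. Besides Camk2n2, Dlg4, which encodes the scaffold PSD-95, stood out at 9.69, 9.98 and 9.65 against 9.17, 9.20 and 9.53 (-0.48 ± 0.12). Its ranges were apart in cortex, and hippocampus gave -0.08. Camk2a, the alpha subunit of the kinase, overlapped at 12.59, 12.65 and 12.27 against 12.25, 12.20 and 12.44 (-0.21 ± 0.12). Receptor genes showed no such lean. The measured NMDA receptor genes split 3 to 3 of 6 with a median of 0.00 and a bound on every interval of -0.42 to 0.33, AMPA and kainate receptor genes 5 above to 8 below of 13 (median -0.02), metabotropic glutamate receptor and Homer genes 5 to 4 of 9 (0.02), and GABA-A receptor genes 8 to 2 of 10 (0.03). Homer2, a scaffold of the metabotropic receptors, read 9.87, 9.74 and 9.71 against 9.63, 9.37 and 9.71 (-0.20 ± 0.09). Synaptic adhesion genes, the class in which APP itself acts, split 14 to 6 of 20 with a median of 0.03, and all 20 intervals were within 1.5-fold. Ncam2, a neural cell adhesion molecule, was its highest member at 6.76, 6.94 and 6.75 against 7.14, 6.91 and 7.00 (0.20 ± 0.08). Among 21 monoamine and acetylcholine receptor genes, 12 were above 0 (median 0.04), and Chrna7, the alpha7 nicotinic receptor, read 8.23, 8.44 and 8.25 against 8.59, 8.49 and 8.59 (0.25 ± 0.07) without overlap.

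Immediate early genes, which neurons switch on within minutes of activity, were mostly lower, with a wide spread between the arrays of a genotype. Of 34 measured, 25 were below 0 with a median of -0.23, and at an unadjusted p under 0.05 stood 8 lower (2.5% of all genes) and 1 higher (2.07% of all genes). The list's mean signal was 8.62, 8.30 and 7.94 on the APLP2-KO arrays and 8.19, 7.91 and 7.98 on the APPsα-DM arrays, which overlapped, with APLP2-KO replicate 1 highest. Without that array the median was -0.14 with 22 of 34 below 0, and over all single left-out arrays it ran from -0.36 to -0.14. Klf2, a zinc finger transcription factor, read 7.85, 7.58 and 7.50 against 7.27, 6.98 and 7.39 (-0.43 ± 0.13), and Jun, a subunit of AP-1, 9.11, 8.66 and 8.54 against 8.46, 8.08 and 8.45 (-0.44 ± 0.14). These did not overlap, and hippocampus gave -0.10 for Klf2 and -0.00 for Jun. Over the list, 25 of 34 were below 0 in hippocampus too, with a median of -0.16, and Arc gave -0.90 there. Arc read 9.71, 8.34 and 8.40 in APLP2-KO hippocampus, with replicate 1 highest as in cortex. The labels do not say whether arrays of the same number come from the same mouse, so the hippocampus is no independent repeat. Fos, the other part of AP-1, overlapped at 9.72, 8.95 and 7.73 against 9.23, 7.93 and 7.90 (-0.45 ± 0.60), while Npas4, a transcription factor induced by calcium entry, just did not at 7.74, 5.93 and 6.02 against 5.92, 5.85 and 5.60 (-0.78 ± 0.45, and -0.19 without APLP2-KO replicate 1). Bdnf, a neurotrophin and the higher gene among the 9, read 7.84, 8.13 and 7.93 against 8.11, 8.45 and 8.25 (0.30 ± 0.13). APLP2-KO replicate 1 also had the highest level of thalamus markers, given below, and their part in this list was not tested.

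Tau and microtubule genes leaned to lower values, with 19 of 25 below 0, a median of -0.05 and 5 lower (2.5% of all genes) and no higher genes at an unadjusted p under 0.05. Their mean signal was 11.11, 11.12 and 11.08 against 11.04, 11.01 and 11.06, which did not overlap. Stmn4, a stathmin that binds tubulin, read 11.83, 11.68 and 11.75 against 11.50, 11.59 and 11.46 (-0.24 ± 0.08), with -0.25 in hippocampus. Tubb4a, a beta-tubulin, read 11.68, 11.77 and 11.67 against 11.47, 11.57 and 11.51 (-0.19 ± 0.07). Both were apart in cortex. The intermediate filament genes Ina (-0.22 ± 0.08) and Nefm (-0.23 ± 0.09) overlapped between the genotypes, as did Cdk5r2, an activator of the kinase Cdk5 (-0.29 ± 0.12). In hippocampus 17 of the 25 were above 0 with a median of 0.02, so the lean was not repeated there.

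Markers of cell types and neighbouring tissues were read to see how alike the dissections were. In bulk tissue fewer cells of a type and less RNA per cell cannot be told apart. The markers told cortex from hippocampus. Genes of hippocampal neurons averaged 6.81 over the cortex arrays and 8.76 over the hippocampus arrays. Those of upper cortical layers averaged 9.37 and 8.80, and those of layer 4 7.15 and 5.80. Whether the pieces were prefrontal was not tested by these lists. Striatal genes averaged 9.69 in cortex and 7.78 in hippocampus.

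Layer 4 markers had the lowest median of the 42 lists, -0.27, with 5 of 6 below 0 and 2 lower genes at an unadjusted p under 0.05, beside 2.5% of all genes. Their mean was 7.37, 7.33 and 7.13 in APLP2-KO and 7.19, 7.04 and 6.87 in APPsα-DM, with some overlap. Tmem215 read 7.02, 6.79 and 6.62 against 6.63, 6.59 and 6.24 (-0.33 ± 0.12), and Scnn1a, an epithelial sodium channel subunit, 6.96, 6.98 and 7.07 against 6.92, 6.85 and 6.49 (-0.25 ± 0.11). Upper-layer markers split 3 above to 8 below of 11 (median -0.07), with Cux1, a homeobox factor of these neurons, at 9.45, 9.47 and 9.35 against 9.14, 9.21 and 9.15 (-0.26 ± 0.06) and without overlap. Its relative Cux2 read 9.58, 9.48 and 9.52 against 9.38, 9.08 and 9.27 (-0.28 ± 0.16). Layer 5 markers split 6 to 5 of 11 (0.04) and those of layer 6 5 to 7 of 12 (-0.04). Within layer 5 the members diverged, with Deptor, an inhibitor of mTOR, at 9.05, 8.93 and 8.98 against 8.33, 8.73 and 8.62 (-0.42 ± 0.13), and Bcl11b, a transcription factor shared with the striatum, at 10.40, 10.36 and 10.38 against 10.45, 10.58 and 10.80 (0.23 ± 0.10).

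GABAergic and striatal markers lay above 0 and leaned on APPsα-DM replicate 3. Of 20 GABAergic genes, 15 were above 0 with a median of 0.10, and 4 higher and no lower genes had an unadjusted p under 0.05, beside 2.07% of all genes that were higher at that level. Gad1, which makes GABA, read 12.21, 12.20 and 12.14 against 12.36, 12.22 and 12.53 (0.19 ± 0.08), and Dlx1, a homeobox factor of interneurons, 7.76, 7.72 and 7.98 against 7.96, 8.05 and 8.49 (0.34 ± 0.13). APPsα-DM replicate 3 was highest for both. Of 16 striatal genes, 15 were above 0 with a median of 0.21, and their mean was 9.79, 9.54 and 9.42 against 9.52, 9.82 and 10.03. Pdyn, prodynorphin, was apart at 7.09, 6.99 and 6.63 against 7.26, 7.19 and 7.33 (0.36 ± 0.12). Without APPsα-DM replicate 3 the median was 0.07 for each of the lists. The 6 olfactory bulb genes, chosen after Cdhr1 had been seen, averaged 5.44, 5.49 and 5.88 against 5.53, 6.02 and 7.27, with a median difference of 0.66, and of 0.14 without that array. Their part in the GABAergic and striatal values was not tested.

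**Figure D5:**
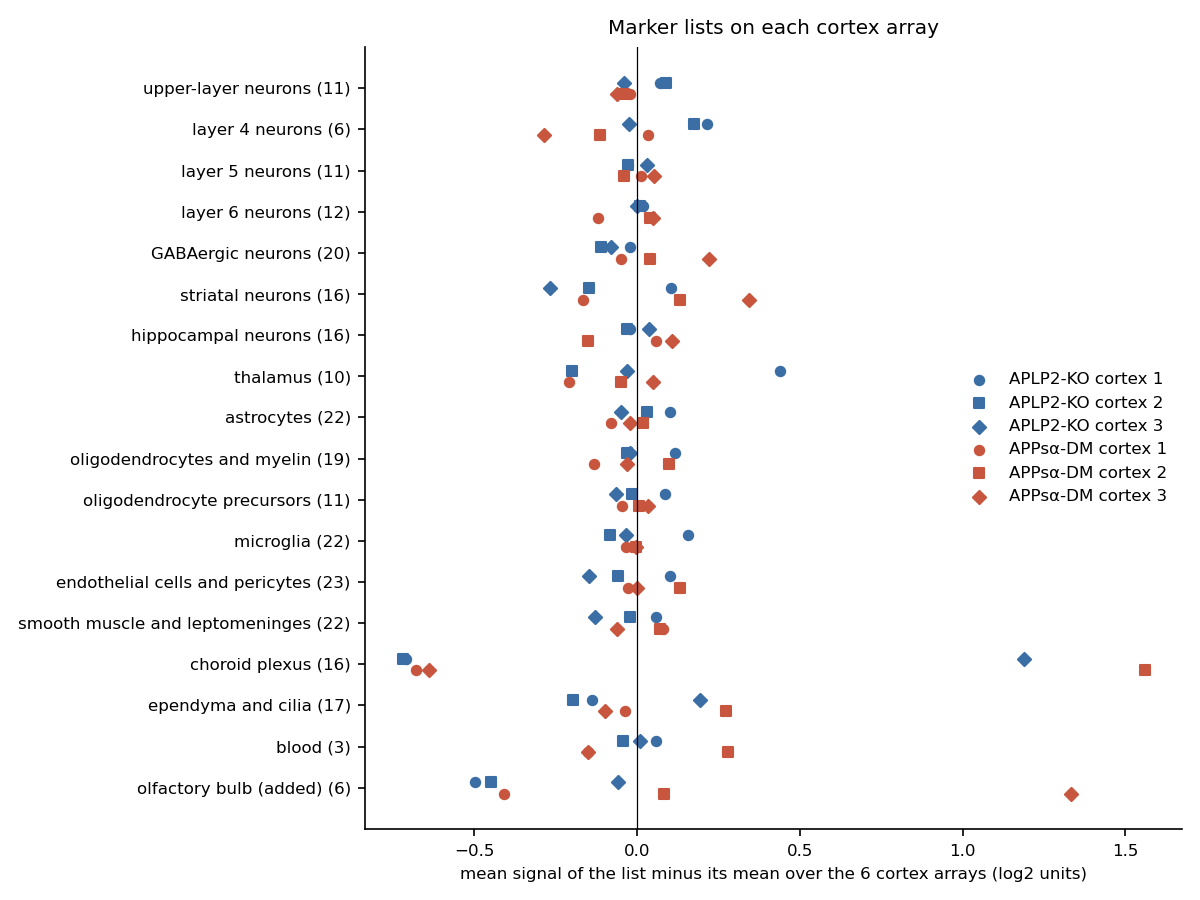
Mean signal of each marker list on each of the 6 cortex arrays, minus the mean over the 6 (log2 units), with APLP2-KO in blue, APPsα-DM in red and the symbol giving the replicate. Choroid plexus genes set apart 1 array of each genotype, olfactory bulb genes APPsα-DM replicate 3 and thalamus genes APLP2-KO replicate 1, and the points of the glial lists lie close together.

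Thalamus markers averaged 7.65 on APLP2-KO replicate 1 and 7.00 to 7.26 on the other cortex arrays. Their median difference of -0.15 became 0.05 without that array. Choroid plexus genes averaged 5.19, 5.18 and 7.09 in APLP2-KO and 5.22, 7.46 and 5.26 in APPsα-DM, 1 high array in each genotype, with a median difference of 0.13 that ran from -0.47 to 0.90 as single arrays were left out. Ependyma and cilia genes followed with 13 of 17 above 0 (median 0.12).

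Over all cortex arrays, glia showed no shift that separated the genotypes. Microglia markers split 9 above to 13 below of 22 with a median of -0.02, and all 22 intervals lay within a 1.5-fold change. Astrocyte markers were below 0 in 18 of 22 (median -0.06, all intervals within 1.5-fold), with S100b, a calcium-binding protein, at 10.96, 10.83 and 10.66 against 10.51, 10.72 and 10.64 (-0.19 ± 0.08). Oligodendrocyte and myelin markers were below 0 in 15 of 19 (-0.05), which became 0.02 without APLP2-KO replicate 1, and those of their precursors split 5 to 6 of 11 (0.00). Vessel markers lay above 0 in 17 of 23 (median 0.05), with 3 higher (2.07% of all genes) and no lower genes at an unadjusted p under 0.05. Itm2a, a membrane protein of brain endothelium, read 11.06, 10.92 and 11.10 against 11.22, 11.52 and 11.29 (0.32 ± 0.10), and Kdr, the main receptor for VEGF, 7.05, 7.06 and 6.75 against 7.13, 7.57 and 7.15 (0.33 ± 0.13). Both were apart, and both peaked on APPsα-DM replicate 2, one of the arrays of high Ttr. Without the pair of high Ttr arrays the median of the vessel list was -0.03, and that of 22 smooth muscle and leptomeninges genes went from 0.08 to -0.04. In hippocampus 22 of 23 vessel genes were above 0 with a median of 0.18, and 18 of 22 smooth muscle and leptomeninges genes with a median of 0.27. Choroid plexus genes were above 0 there in 16 of 16 (median 1.09), and ependyma and cilia genes in 14 of 17 (median 0.32). The part of neighbouring tissue in the hippocampus vessel values was not tested.

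The hippocampus arrays of the same genotypes gave 4 called probe sets of 45037 (0.00888%), and these were the same 4 as in cortex. The differences there were -4.60 and -1.91 for the App probe sets and -3.46 for the unnamed one. No probe set passed the threshold for the difference between the tissues (0 of 45037, 0%), where 1705 had an unadjusted p under 0.05 and the smallest adjusted p was 1 in limma. Of the 22 genes of smallest p that were not called in cortex, 14 had the same sign in hippocampus, and 6 of these an unadjusted p under 0.05 there. Over all probe sets, 1852 of 45037 stood under that p in hippocampus. The fit shares a single estimate of spread between the tissues, and the genes were picked by their cortex p from it. Their hippocampus p is thus not independent of the choice. The share of all genes with the same sign in both tissues was not analysed here. The genes of smallest p for the difference between the tissues were Cplane1 (0.39 in cortex, -0.14 in hippocampus), Prokr2 (0.53 and -0.12), Tyrp1 (0.38 and -0.28), Vps54 (0.24 and -0.29) and Efcab12 (-0.22 and 0.44). The probe sets of these 5 all had a signal under the median of all probe sets.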

How the data were processed

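The table deposited by the authors holds log2 signals of 12 Affymetrix arrays, 1 per tissue sample. RMA and the affy package made them, per the submitters' processing notes, whose versions the sources used here do not give. This method subtracts background, sets arrays to 1 distribution and merges probes into 1 value per probe set, which damps differences at low signal. It is not stated if the 12 arrays went through it jointly. Of 45101 probe sets, 64 controls were left out. Of the rest, 34945 have 1 gene symbol, 932 several and 9160 none. Genes are named from probe sets with 1 symbol. Symbols were updated through RefSeq for 34741 of them.

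limma 3.58.1 in R 4.3.3 was run on the 12 arrays with a mean for each of 4 groups (8 residual and 4.25 prior degrees of freedom), with Benjamini-Hochberg adjustment over 45037 probe sets. The fit took the 12 arrays as independent, and mice shared between the tissues were not modelled. Simulated data held 100 probe sets changed 2-fold and 100 changed 4-fold together, with normal noise independent between arrays. Of these, 94 and 99 were recovered. Fewer changed probe sets make the Benjamini-Hochberg cutoff stricter, so recovery with the 4 calls of the real data was not tested. Named genes were App and its family, called probe sets, the 12 higher and 12 lower genes of smallest p with their other probe sets, the 5 largest differences each way, up to 4 members of smallest p per list, and the 5 of smallest p between tissues. Further list members (such as Bace1, Fos, Hmgcs1 and Cux2) were chosen after their values were seen. Same-numbered cortex arrays of the genotypes deviated with correlations of -0.255 to -0.08, so the replicate numbers do not pair them. Members, lists and tests were chosen with earlier results of these data known, and the olfactory bulb list after the values were seen. The number of arrays limits the precision. Alternatives were the cortex arrays alone, a replicate block, centred arrays, trended robust variances, a filter on low signal and left-out arrays.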

Additional observations from a re-analysis of the deposited data

How the results depend on the processing

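The 4 calls in cortex were 3 to 5 under all alternatives: 5 with the replicate number as a block (replicate block), 3 from the cortex arrays alone, 3 without the 2 arrays of highest Ttr and 3 to 4 with single arrays left out, and the calls between tissues stayed at 0. The block was fitted although the deviations of the cortex arrays gave no sign of a pairing by replicate number. Timmdc1 was past the threshold in 5 of 12 settings, with an adjusted p of 0.00309 to 0.577 in limma and a difference of 0.78 to 0.95. Of 87 genes and probe sets followed, 4 changed sign in some setting, none of them called. Daglb gave 0.06 without the 2 arrays of highest Ttr. With single arrays left out, Aplp2 ran from -0.08 to 0.05, Fos from -0.99 to 0.01 and Ttr from -1.87 to 1.60. Of 43 list medians, 21 changed sign in some setting and 13 moved by more than the spread between arrays. With each gene's probe sets averaged, the medians of neurotrophin genes (-0.01), Notch, Wnt and reelin genes (-0.03), layer 5 markers (-0.01), metabotropic glutamate receptors (-0.01) and monoamine and acetylcholine receptors (-0.01) turned negative, and that of the APP intracellular domain targets went from 0.03 to -0.00. The cause was not tested. The number of arrays limits the precision, and whether signal over background limits the calls was not tested.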

Other observations

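Ion channel, growth factor, chaperone and developmental signalling genes lay close to the balance of all genes. Of 27 potassium channel genes 11 were above 0 in cortex (median -0.01), of 21 sodium, calcium and HCN channel genes 12 (median 0.01, all intervals within a 1.5-fold change), of 14 neurotrophin and receptor genes 8 (median 0.04), of 28 chaperone and unfolded protein response genes 12 (median -0.02), and of 20 Notch, Wnt and reelin genes 11 (median 0.03). Reln, the secreted guidance protein of the last list, read 9.76, 9.72 and 9.52 in APLP2-KO and 9.81, 9.79 and 10.26 in APPsα-DM (0.28 ± 0.12, 0.13 without APPsα-DM replicate 3). Herpud1, a stress-induced protein of the endoplasmic reticulum, read 9.75, 9.85 and 9.98 against 9.78, 9.62 and 9.66 (-0.18 ± 0.09). Kcnip1, a subunit of A-type potassium channels, read 8.27, 8.24 and 8.19 against 8.09, 8.03 and 8.05 (-0.17 ± 0.09). The genotypes did not overlap for Reln and Kcnip1, and the adjusted p of all 3 genes was 1 in limma.

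Some genes were highest or lowest on the same replicate number in both tissues of a genotype. Sox11 read 7.58, 4.68 and 6.84 in APLP2-KO cortex and 8.60, 5.29 and 7.50 in APLP2-KO hippocampus, and 7.86, 6.82 and 7.85 against 8.56, 7.21 and 8.42 in APPsα-DM. Daglb read 6.88, 4.85 and 7.76 in APLP2-KO cortex and 6.66, 4.87 and 7.33 in hippocampus. In APPsα-DM it read 6.79, 5.01 and 5.06 in cortex and 6.59, 5.47 and 5.15 in hippocampus, with replicate 1 highest in both and the lowest replicate not the same. Ywhaz read 9.52, 11.17 and 9.53 in APLP2-KO cortex and 8.87, 11.14 and 9.07 in hippocampus. 2610507I01Rik read 6.66, 5.41 and 5.55 in APPsα-DM cortex and 6.56, 5.09 and 5.65 in hippocampus. The labels do not say whether arrays of 1 number come from 1 mouse. Over all probe sets, the deviations of same-numbered cortex and hippocampus arrays from their group means correlated at 0.109 to 0.155 in APLP2-KO and at 0.019 to 0.078 in APPsα-DM.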
